A study of Mus musculus with 16 samples.

Results

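The data described here are the free (F) and DNA-bound (D) sperm RNA of Dnmt2-/- males on normal diet (ND), 4 libraries of the 16 in the series. They are F and D of male 1 and F and D of male 2, chosen by the titles of the samples and paired by the male number in them. Together they hold 86386 peaks, of 159135 peaks in the lists of all Dnmt2-/- males. The series also covers Dnmt2-/- males on a high-fat diet and wild-type C57BL/6 males, which are not analysed here. All 4 libraries come from C57BL/6 animals that lack Dnmt2 on both alleles and were 6 to 8 months old, so deletion, strain, age and diet are shared and nothing below concerns any of them. The starting material was epididymal sperm cleared of somatic cells by a spin, with proteins then removed by proteinase K. F was recovered from the aqueous phase of the extract, and D was what DNase set free from the purified DNA. The comparison asks which RNAs lie free in sperm and which stay with the genome.

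Dnmt2, the product of the gene Trdmt1, is a methyltransferase that methylates cytosine in certain tRNAs. RNA can stay attached to DNA as a hybrid, known as an R-loop, in which it pairs with one strand and displaces the other. R-loops are known to form at ribosomal DNA, at telomere repeats and at other repeated sequences. Mature sperm have a tightly packed genome with little transcription, and their RNA is a remainder of spermatogenesis together with RNA taken up in the epididymis.

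Each library was given as a list of peaks, which are stretches where reads pile up above their surroundings, with a position on mm10 (GRCm38), a score and an annotation. The score was read as the number of tags (reads) in the peak after scaling all libraries to 1 total. It is used as a share of the summed score of 1 list. F of male 1 had 25406 peaks, F of male 2 had 7635, D of male 1 had 3427 and D of male 2 had 49918. Peaks started at 6 tags in 3 of the lists and at 14 in D of male 2, and the peak width ran from 170 bases in F of male 1 through 181 and 249 to 400 bases in D of male 2. Tags in peaks summed to 3030693 and 964727 in F of males 1 and 2 and to 9916100 and 9764513 in D. Depth, width and lowest peak all differ between the lists, so numbers of peaks are not amounts of RNA.

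Stretches under some of the highest peaks are shown because the results below return to these positions. The bases are those of GENCODE M21 transcripts on GRCm38, 5′ to 3′ on the strand of the transcript. In the pair of Lars2 and Gm15564 capitals mark bases that are identical in both, and the others are in lower case throughout.
Lars2 3′UTR, chr9:123462085-123462114, plus strand: GGAACGTGAGCTGGGaTTAGACCGTCGTGA
Gm15564, a copy of large-subunit rRNA, chr16:35981730-35981759, minus strand: GGAACGTGAGCTGGGtTTAGACCGTCGTGA
Gm23935, under the highest peak of F of male 1, chr16:11144125-11144181, plus strand: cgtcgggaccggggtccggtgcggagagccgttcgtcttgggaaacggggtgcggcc
Gm10800, under the highest peak of D of male 2, chr2:98666869-98667040, minus strand: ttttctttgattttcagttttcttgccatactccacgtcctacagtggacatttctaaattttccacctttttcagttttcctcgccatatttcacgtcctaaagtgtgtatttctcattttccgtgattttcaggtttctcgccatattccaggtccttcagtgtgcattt
Gm42418 in the 45S region, shared by the peaks of F of male 2 and both D libraries, chr17:39847700-39847803, plus strand: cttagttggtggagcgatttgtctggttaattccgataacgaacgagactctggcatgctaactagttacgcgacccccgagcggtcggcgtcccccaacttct
Gm26917 in the 45S region, the peak of F of male 1, chr17:39844761-39844930, plus strand: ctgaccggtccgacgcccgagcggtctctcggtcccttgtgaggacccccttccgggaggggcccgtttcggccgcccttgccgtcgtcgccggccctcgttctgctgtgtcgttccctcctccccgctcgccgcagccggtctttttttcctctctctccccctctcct

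These stretches differ widely in base content, with a GC share of 38.4% in the satellite Gm10800, 53.8% in Gm42418, 69.4% in Gm26917 and 73.7% in Gm23935. The Lars2 stretch and the Gm15564 stretch differ by A16T, with positions counted from 1 at the 5′ end and the Lars2 base named first. Over a longer match of 71 bases, chr9:123462049-123462119 in Lars2 and chr16:35981725-35981795 in Gm15564, 70 bases were identical (98.6%). The stretch of Gm23935 also stands base for base in Gm24245 and Gm24270, and that of Gm42418 on the opposite strand of AY036118. The satellite stretch of Gm10800 has close copies in other annotated transcripts, at 96.5% identity in Gm26870 and 93.0% in Gm21738. A read from such a sequence can be placed at more than 1 position, so the copy that carries a peak cannot be told apart from its relatives.

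Before the comparison, the label was checked on the genes. No library had a peak in an exon of Trdmt1: F of both males and D of male 1 had no peak assigned to the gene, and D of male 2 had 1 in intron 2 (chr2:13532345-13532744, score 16.1, 50 tags). A list of peaks cannot show that a deletion is present. Genes of sperm and spermatids, such as the protamines Prm1 and Prm2 that pack sperm DNA, were seen outside introns for 10 of 14 members in F of male 1 and for 0 of 14 in each other library. The defining sperm genes Tnp1 and Akap4 had none in any. Of all genes named in any list, 34.2% were seen in this way in F of male 1, 0.898% in F of male 2, 0.637% in D of male 1 and 5.33% in D of male 2. Genes of the epididymal epithelium had a peak in 16 of 16 cases in F of male 1 and of smooth muscle and fibroblasts in 9 of 9, against 0 in every other library. The members of these lists were chosen with earlier results of these data known, so the full counts are no independent check. Erythroid genes (2 of 7) and liver genes (1 of 7) lay below that 34.2% in F of male 1, and leukocyte genes (2 of 6, 33.3%) close to it. The erythroid count leaves out the globin gene Hbb-b1, which is not on the list and ranked 26 there with 3111 tags. Of these 3 lists, 1 leukocyte gene, Ptprc, and 1 liver gene, Apoa2, had a peak in D of male 2, and no member had one in F of male 2 or D of male 1. F of male 1 thus stood apart from the other 3 libraries, so values are given per library and the main differences also without it. In bulk RNA, fewer cells of a type and less RNA per cell cannot be told apart.

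The position classes separated F of male 1 from the rest, and not F from D. Exons held 46.6% of the annotated peaks in F of male 1 and 0.290% in F of male 2, against 0.615% and 0.257% in D of males 1 and 2. Peaks in 3′UTRs made up 13.8% and 0.369% in F and 0.703% and 0.269% in D. Introns held 18.9% and 34.6% in F and 35.2% and 33.0% in D. Intergenic positions held 8.69% and 62.9% in F and 60.9% and 64.7% in D. In each of these 4 classes F of male 2 lay within the D libraries or close beside them, whereas F of male 1 was far outside. The 95% Wilson interval of the exon share in F of male 2 (0.192 to 0.439) overlapped that of D of male 2 (0.216 to 0.305) and that of D of male 1 (0.402 to 0.938). These intervals cover counting error only, and neighbouring peaks of a transcript are not independent.

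**Figure D1:**
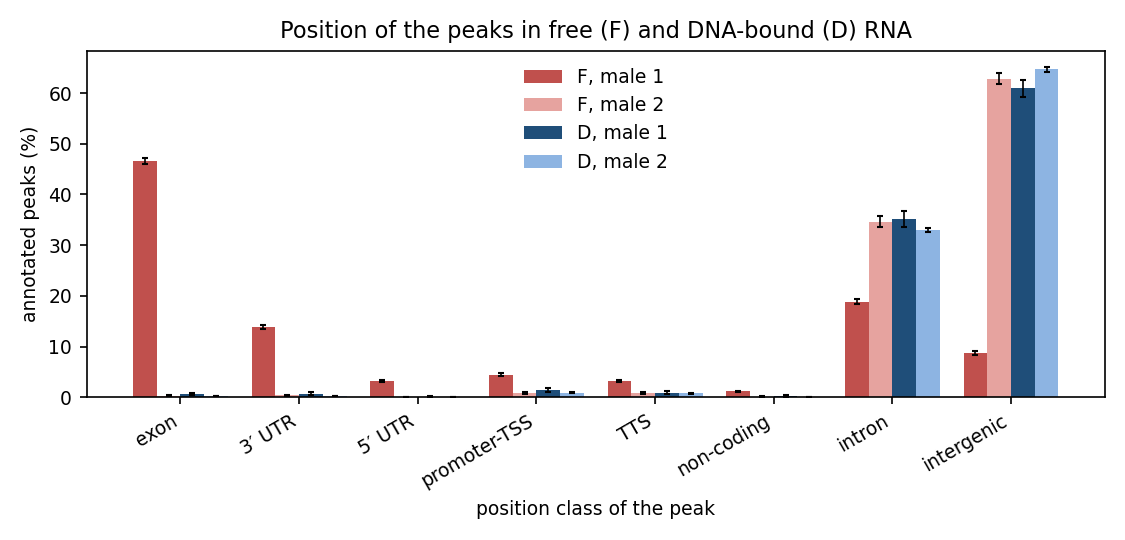
Share of annotated peaks (%) by position class in F and D of both males. Bars are single libraries with 95% Wilson intervals; exons held 46.6% in F of male 1 and under 1% in the other 3 libraries.

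The difference between F and D was tested within males by an exact sign-flip permutation test. With 2 males this exact test has 4 sign patterns and a smallest p of 0.5 (two-sided), so no comparison here could pass a threshold of 0.05. In F the exons exceeded those of D by 46.0 percentage points in male 1 and by 0.0331 points in male 2, a mean of 23.0 ± 32.5 (SD, n = 2 males; exact permutation test, p = 0.5, adjusted p = 0.889 over 16 comparisons). For 3′UTRs the mean difference was 6.62 ± 9.21 points (SD, n = 2; higher in F in both males, exact p = 0.5). For intergenic positions it was -27.0 ± 35.7 points (lower in F in both, exact p = 0.5). In each of these 3 the spread between the males was larger than the mean. The intron share fell by 16.3 points in F relative to D in male 1 and was 1.62 points higher in male 2 (exact p = 1). With F of male 2 alone against the mean of both D libraries, the differences were -0.15 points for exons, -0.12 for 3′UTRs, 0.55 for introns and 0.061 for intergenic positions, so the exon, 3′UTR, intron and intergenic differences all turned.

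The smaller classes behaved alike. Promoter-TSS peaks, near the start of a gene, made up 4.45% and 0.857% in F and 1.46% and 0.924% in D. The 5′UTR held 3.20% and 0.0264% in F and 0.0293% and 0.0462% in D, and positions at transcription termination sites (TTS) 3.20% and 0.844% against 0.878% and 0.767%. The non-coding class held 1.17% and 0.119% in F and 0.234% and 0.0442% in D. For TTS and the non-coding class F was higher in both males (exact p = 0.5), and for promoter-TSS and 5′UTR peaks the males went opposite ways (exact p = 1). Peaks of F of male 1 also lay closer to genes, with a median distance of 12501 bases to the nearest start and 13.8% of peaks within 1000 bases. In the other 3 libraries that share was 1.33% to 2.20%.

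Each annotated peak was also weighted by its score. Introns then held 67.8% and 52.1% of the summed score of annotated peaks in F of males 1 and 2, and 36.9% and 11.7% in D. Here F was higher in both males, by a mean of 35.7 percentage points (exact permutation test, p = 0.5), which is the opposite of the count of peaks. With F of male 2 alone against the mean of D it was higher by 27.8 points. Intergenic positions held 7.15% and 36.5% in F and 36.4% and 87.1% in D. The 3 highest peaks of F of male 1, all rRNA copies in introns, held 60.1% of its summed score. The highest of F of male 2, also such a copy, held 40.1%. Over intron and intergenic peaks together, rRNA repeats held 91.5% and 60.5% of the score in F and 97.4% and 2.90% in D. Satellites held 0.806% and 19.1% there in F and 0.166% and 71.1% in D. The 3′UTRs held 4.32% and 2.62% in F and 15.8% and 0.100% in D, where nearly the whole of the 15.8% was the Lars2 position. The exon share of the score was 14.4% in F of male 1 and at most 0.0539% in the other libraries.

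Score was concentrated in few peaks in both fractions. The highest peak alone held 30.5% and 40.1% of the summed score in F of males 1 and 2, and 15.8% and 52.0% in D. The 10 highest held 69.4% and 70.4% in F and 74.8% and 71.3% in D. The groups did not overlap in this share, and the mean difference was -3.13 ± 3.26 percentage points (SD, n = 2 males, lower in F in both; exact permutation test, p = 0.5), and -2.61 points with F of male 2 alone against the mean of D. D of male 1 was the most concentrated past that point, with 98.7% in its 100 highest peaks, against 75.3%, 82.8% and 75.9% in F of males 1 and 2 and D of male 2. A total of 50% of the score needed 3 peaks in each F library, 5 in D of male 1 and 1 in D of male 2.

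**Figure D2:**
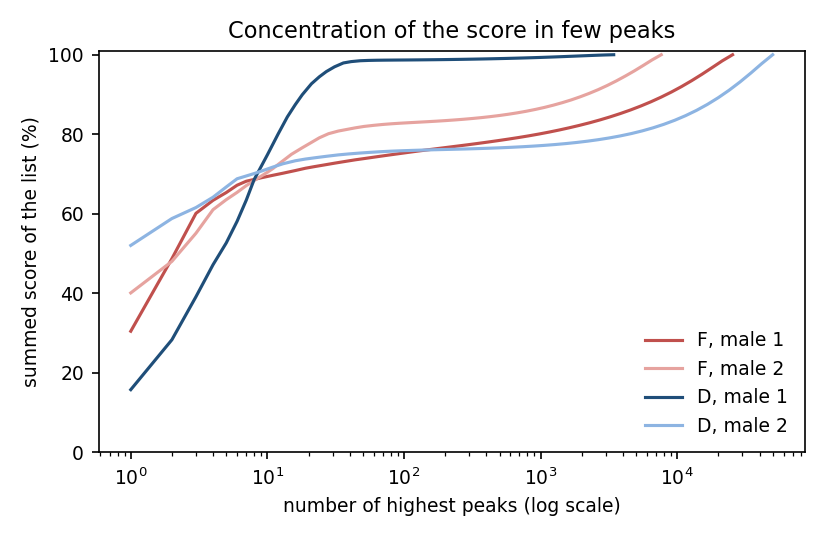
Share of the summed score (%) held by the highest peaks of each list, against the number of peaks on a log scale. Lines are single libraries; all 4 reach 69.4% to 74.8% at 10 peaks, and D of male 1 reaches 98.7% at 100.

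The repeats that carry this score differed between libraries. Copies of large-subunit (LSU) rRNA, the RNA of the large ribosomal subunit, held 65.6% and 51.1% of the summed score in F of males 1 and 2, and 69.7% and 2.77% in D. The mouse major satellite GSAT_MM, the repeat of the chromatin beside the centromeres, held 0.552% and 16.3% in F and 0.113% and 67.4% in D. Thus both libraries of male 1 were high in LSU copies and low in satellite. D of male 2 was the reverse, and F of male 2 held both. As counts of peaks these repeats were rare, with 44 and 30 LSU peaks in F and 63 and 23 in D, and 16 and 19 satellite peaks in F and 9 and 17 in D. Weighted by score, the rRNA repeats were higher in F by a mean of 22.3 points (exact p = 1), with opposite directions in the males, and by 15.9 points with F of male 2 alone against the mean of D.

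The LSU positions also differed within the class. A total of 70 LSU positions had a peak in any of the libraries, 18 of them in all 4. Cdk8 encodes a kinase that acts with the Mediator of transcription, and the copy in its intron, at chr5:146260870-146261269, held 18.2% and 40.1% of the summed score in F of males 1 and 2 and 12.5% and 2.59% in D. It was among the 4 highest peaks of every library and the highest of F of male 2, and its share was higher in F than in D in both males. The copy in an intron of Zc3h7a, which encodes a zinc finger protein and whose peak is nearest to the start of Txndc11 (chr16:11144020-11144189 in F of male 1), held 30.5% and 0.737% in F and 1.84% and 0.0560% in D. Also here F was higher in both males, though 30.5% rests on F of male 1. The copy in an intron of Filip1l held 11.4% and 0.952% in F and 5.49% and 0.0237% in D, again higher in F in both.

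Other copies led in D of male 1 instead. The intergenic copy nearest to Pex2, which encodes a peroxisome assembly factor, held 0.340% and 1.70% in F and 10.8% and 0.0251% in D. The copy in an intron of Gphn, which encodes gephyrin, a scaffold of inhibitory synapses, held 0.0929% and 0.967% in F and 5.43% and 0.0114% in D. The copy nearest to Kpna1, which is the Gm15564 shown above, held 0.115% and 0.972% in F and 5.30% and 0.0169% in D. For these 3 copies D was higher in male 1 and F in male 2, so the direction depended on the male. The copies nearest to Igf2bp3, Il31ra and Dtnbp1 (the last in an intron of Jarid2) had the same order of libraries, with 5.20%, 3.28% and 2.94% in D of male 1 and at most 0.896% in any other library.

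The peak in the 3′UTR of Lars2, the mitochondrial leucyl-tRNA synthetase, held 0.219% and 2.52% of the summed score in F and 15.8% and 0.0349% in D. Its peak held 6636 and 24357 tags in F, and 1565043 and 3406 in D. It was the highest peak of D of male 1, and ranked 16 and 5 in F and 39 in D of male 2, so D was higher in male 1 and F in male 2. This follows the order of the LSU copies near Pex2, Gphn and Kpna1. The annotation lists no repeat at this position, but the peaks covered 46, 64, 71 and 71 of the 71 bases matched to the LSU copy Gm15564, in F of males 1 and 2 and D of males 1 and 2. Whether the Lars2 peak comes from rRNA reads was not tested.

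**Figure D3:**
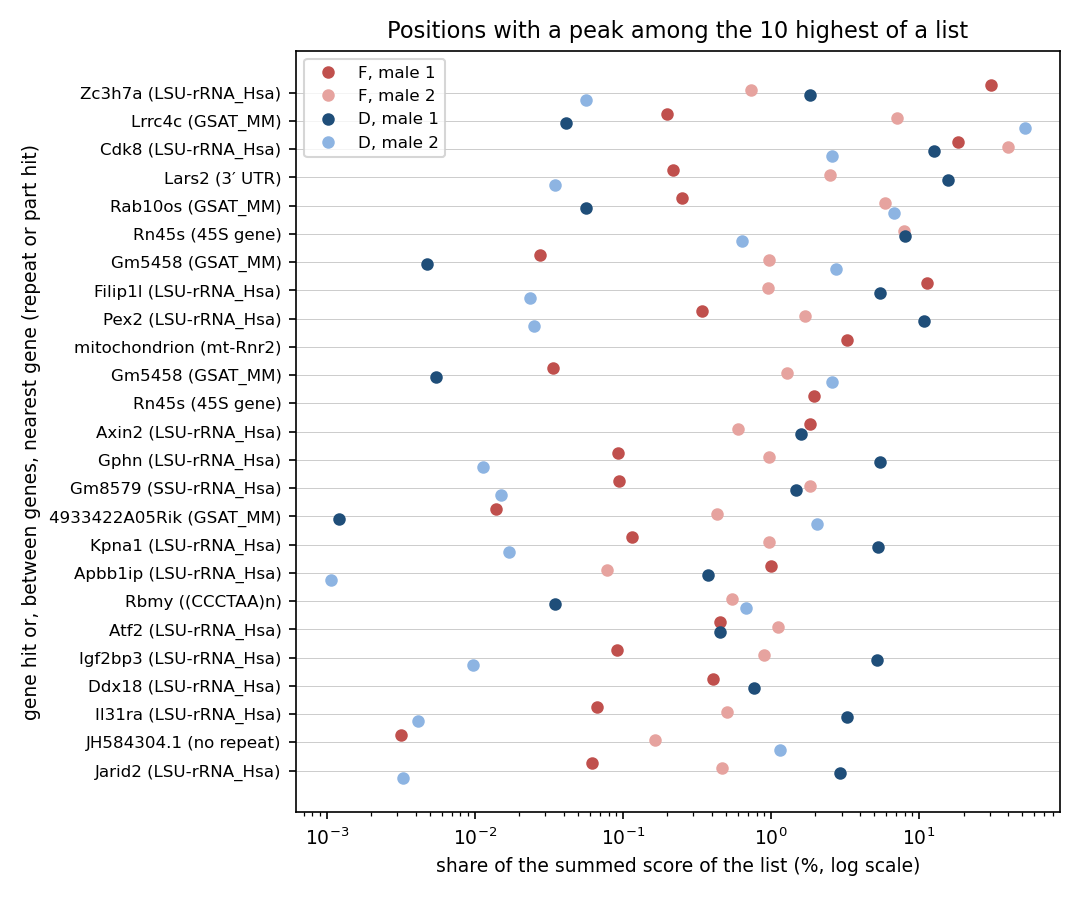
Positions with a peak among the 10 highest of any list, with their share of the summed score (%, log axis). Points are single libraries, labels give the gene hit or the nearest gene with the repeat, and a missing point means no peak; the satellite nearest to Lrrc4c held 52.0% in D of male 2 and 0.0415% in D of male 1.

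In the 45S pre-rRNA region of chromosome 17, annotated as Rn45s and Gm42418, AY036118 and Gm26917, the place of the peak separated F of male 1 from the others. F of male 2 and D of males 1 and 2 had a peak on Gm42418, with 7.93%, 8.04% and 0.633% of the summed score, and F of male 1 had none there. F of male 1 instead had its peak on Gm26917 with 1.96%, where the other 3 libraries had none. Both transcripts belong to the ribosomal DNA repeat unit, and the peak caller compares each position with its neighbourhood, so a weaker peak beside a strong one can be lost.

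Satellite signal came from few positions. The position on chromosome 2 with Lrrc4c as the nearest gene, which is the Gm10800 stretch shown above, held 0.199% and 7.08% in F and 0.0415% and 52.0% in D. A satellite on chromosome 12 nearest to Rab10os held 0.249% and 5.92% in F and 0.0568% and 6.76% in D. Both were higher in male 2 than in male 1 in either fraction. Within males, the share was higher in F than in D in male 1 and lower in male 2. A further satellite, the family IMPB_01, had many more peaks and little score: 31 and 94 in F and 18 and 521 in D, with at most 0.272% of the score, and 0 of its 639 positions had a peak in all 4 libraries.

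The mitochondrial genome had 4 peaks in each library. The highest lay in mt-Rnr2, the RNA of the large mitochondrial ribosomal subunit, in 3 libraries, and it held 3.27% and 0.325% of the summed score in F and 0.210% in D of male 1. D of male 2 had its highest at mt-Nd5 and mt-Nd6 with 0.0195%. In both males the highest mitochondrial peak held a larger share in F. The stretch of mt-Rnr2 under the peak of F of male 1, chrM:1452-1621, is shown as the highest mitochondrial share of the 4 libraries.
mt-Rnr2, F of male 1: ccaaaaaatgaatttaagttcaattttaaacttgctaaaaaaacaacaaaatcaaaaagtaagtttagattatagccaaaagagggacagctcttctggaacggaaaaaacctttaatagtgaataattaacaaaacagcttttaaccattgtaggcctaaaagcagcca

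Counted as peaks, simple repeats and LINEs were those of the 6 repeat classes tested in which the fractions did not overlap. Simple repeats, short units in tandem, held 2.60% and 15.7% of peaks in F and 17.4% and 18.1% in D, a mean difference of -8.59 ± 8.82 points (SD, n = 2 males; lower in F in both; exact permutation test, p = 0.5). LINEs, long retrotransposons of which most are L1, held 3.09% and 17.6% in F and 18.5% and 18.8% in D, a mean difference of -8.26 ± 10.1 points (lower in F in both; exact p = 0.5). In male 2 the differences were -2.35 and -1.11 points, so F of male 1 carried most of either mean. The 95% Wilson interval for simple repeats in F of male 2 (14.9 to 16.6) overlapped that of D of male 1 (16.2 to 18.7) and not that of D of male 2 (17.7 to 18.4). Outside the tested classes, low-complexity stretches held 0.740% and 5.11% in F and 5.28% and 9.33% in D, and peaks without a repeat 87.0% and 44.6% in F and 42.7% and 39.6% in D. The fractions did not overlap in these either.

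**Figure D4:**
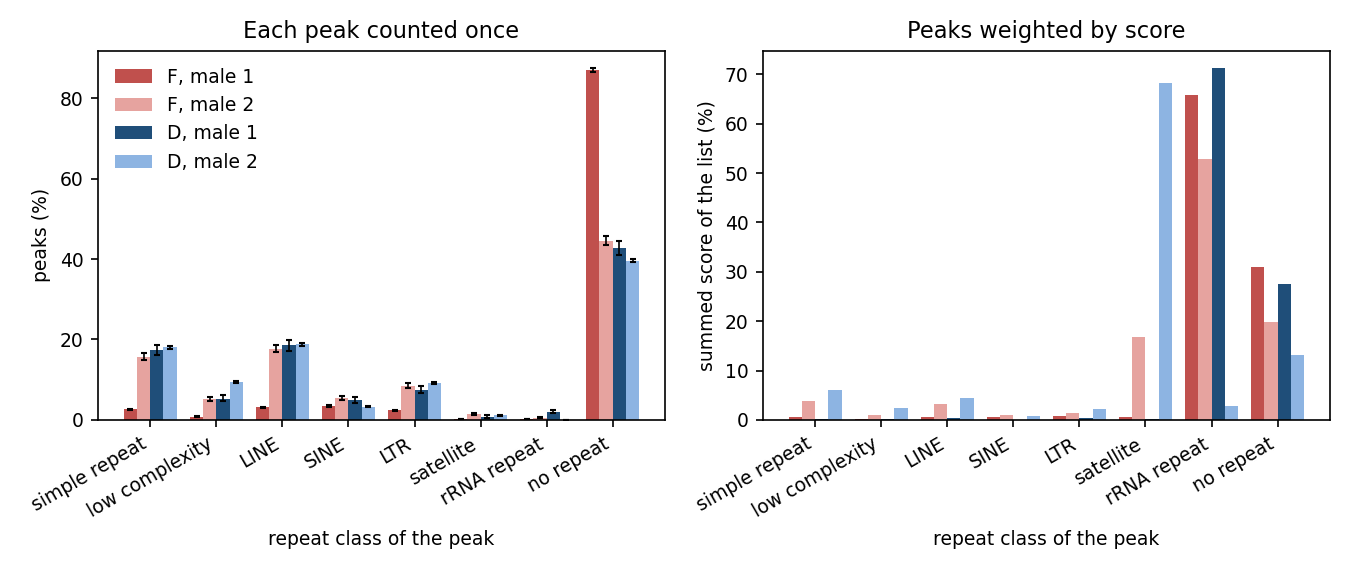
Share of peaks (%) in each repeat class, each peak counted alike with 95% Wilson intervals at the left and weighted by score at the right. Bars are single libraries; satellites hold 68.2% of the score in D of male 2 and 0.121% in D of male 1, with 1.08% and 0.817% of the peaks.

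Most peaks of F of male 1 lay in exons and UTRs, which hold few repeats, so the shares were also taken over intron and intergenic peaks alone, a choice made after seeing the data. Simple repeats then held 9.46% and 16.2% in F and 18.2% and 18.5% in D, and LINEs 11.2% and 18.2% against 19.3% and 19.2%. Both stayed lower in F in both males. SINEs, short retrotransposons, held 12.7% and 5.67% in F and 5.18% and 3.40% in D, which was higher in F in both males, by 7.53 and 2.27 points (exact permutation test, p = 0.5). Over all peaks the SINE difference had opposite directions in the males, -1.47 and 2.18 points. In F of male 1 the Alu family (B1 in the mouse) held 5.48% of the intron and intergenic peaks and B2 4.98%, and in the other libraries Alu held at most 2.01% and B2 at most 1.45%. LTR elements held 8.54% and 8.82% in F and 7.77% and 9.31% in D, with males in opposite directions.

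The units of the simple repeats also differed between libraries. The AC unit, read on both strands, made up 30.6% and 42.6% of simple-repeat peaks in F and 10.1% and 23.8% in D, higher in F in both males. The AAAG unit made up 15.3% and 3.50% in F and 22.4% and 15.7% in D, lower in F in both males. AAGG had 4.39% and 4.00% against 9.72% and 9.44%, so the fractions did not overlap in these 3 units. Dinucleotide units together had 45.7% and 56.0% in F and 19.6% and 34.6% in D. These motifs were singled out after their values were seen, and no test was made on them.

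The telomere unit TTAGGG, in either orientation, had a peak at 165 positions, 24 of them in all 4 libraries. It had 29 and 72 peaks in F and 65 and 155 in D. Of all peaks these were 0.114% and 0.943% in F and 1.90% and 0.311% in D. This share was higher in D in male 1 and in F in male 2. The unit held 0.0229% and 1.18% of the summed score in F and 0.0831% and 1.68% in D. The share of score was higher in D in both males. Its largest single position in 3 libraries lay on the Y chromosome, closest to Rbmy, a gene family expressed in male germ cells, with 0.543% in F of male 2, 0.0346% and 0.677% in D and no peak in F of male 1.

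Among L1 elements, the L1Md subfamilies of the mouse made up 31.8% and 15.6% in F and 19.9% and 11.3% in D. In the ERVK family RMER17C was the commonest name in F of male 2 (58 of 401 peaks), D of male 1 (10 of 114) and D of male 2 (526 of 2868). F of male 1 differed, with IAPEz-int, the internal part of an intracisternal A particle, in 34 of 179. Its ERV1 peaks were mostly in RLTR4_MM-int (62 of 160) and MMVL30-int (46), both internal parts of retroviral elements.

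Peaks of the 2 fractions seldom shared a position. With at least 1 shared base, 148 peaks of D of male 1 overlapped a peak in F of the same male, 4.32% of D and 0.583% of F. In male 2 the numbers were 1225 peaks and 2.45% of D, and 16.1% of F. The shared peaks held 89.3% of the score of D and 67.5% of that of F in male 1, and 75.8% and 81.9% in male 2. In male 1 the median shared peak was higher than the rest, with 97.6 tags against 33.9 in D and 44.5 against 22.0 in F. In male 2 it was close to the rest, with 50 tags against 42.9 in D and 21.0 against 20 in F, so there a few peaks carried the shared score. Between males, 527 peaks of D were common to both (15.4% of D of male 1 and 1.06% of D of male 2). In F, 154 were common (0.606% of F of male 1 and 2.02% of F of male 2). As a share of D of male 1, its overlap was greater with D of male 2 (15.4%) than with F of the same male (4.32%). Both lists of male 2 overlapped more with the other fraction of the same male. That was 16.1% against 2.02% for F, and 2.45% against 1.06% for D. In F of male 1 the shares were close, 0.606% with F of male 2 and 0.583% with D of the same male. D of male 2 has the most peaks and the widest, and the part of this in the overlap was not tested.

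The peaks found in every library were mostly repeats. In D of male 1, 70 peaks overlapped a peak of each of the other 3 lists, 2.04% of the list and 79.7% of its score. Of these 70, 30 were simple repeats, 20 rRNA repeats, 8 satellites and 7 without a repeat name. In the other 3 lists 69 or 70 peaks did so, with 62.8%, 68.5% and 71.5% of the score in F of males 1 and 2 and D of male 2. Peaks that overlapped none of the others made up 97.9%, 82.9%, 82.1% and 96.1% of F of males 1 and 2 and D of males 1 and 2. They held 32.0% and 14.4% of the score in F and 1.35% and 23.2% in D. Without rRNA, satellite, simple and low-complexity repeats, 1.80% of D peaks overlapped F in male 1 (46 of 2551) and 1.33% in male 2 (473 of 35668).

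At the level of genes, F of male 1 again stood alone. Of 21052 genes named in any list, 28.9% had a peak in exons or UTRs of F of male 1 (6093 genes) and 0.247% did in F of male 2 (52). In D the shares were 0.219% (46) in male 1 and 1.34% (283) in male 2. So D had fewer such genes than F in male 1 and more in male 2. With promoter-TSS, TTS and non-coding peaks added, the shares were 34.2% and 0.898% in F and 0.637% and 5.33% in D. Genes in F of male 1 had a mean of 2.65 exon or UTR peaks, 3475 of them had more than 1, and in F of male 2 and D of male 1 each gene had 1. In D of male 2, Plxna4, a semaphorin receptor, had 2.

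Genes of many kinds were among those with most exon or UTR peaks in F of male 1. Syne2, a large protein that links the nuclear envelope to the cytoskeleton, had 46 exon or UTR peaks, Plb1 (phospholipase B1) and Ttn (titin) 29 each, and Col6a4, a collagen chain, and Syne1 25 each. Spink5, a protease inhibitor, had 24, Acly, the ATP citrate lyase, and Myo5b, a myosin of vesicle transport, 22 each, and Abca3, a lipid transporter, 21. Exon peaks of F of male 1 were spread along the transcripts, with 32.7% in the leading part of the exons and 31.4% in the closing part, when each transcript was cut into 3 equal parts by exon number.

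Only 1 gene, 0.00475% of all named, had an exon or UTR peak in all 4 libraries, and it was Lars2, whose values stand above. Genes with such a peak in F of both males and D of neither numbered 17 (0.0808%), and 0 had it in D of both and F of neither (0%). Without F of male 1, 46 of the 21052 named genes had such a peak in F of male 2 and D of neither. A further 1 had it in D of both and not F of male 2, and 1 in all 3 libraries. The peaks of those 17 were low. Sec16a, a scaffold of sites where proteins leave the endoplasmic reticulum, had 78 tags in F of male 1 and 32 in F of male 2. Slc2a3, a glucose transporter of sperm and neurons, had 54 and 32, and Trim2, a ubiquitin ligase, 81 and 26. Hipk3, a protein kinase, had 48 and 24, Atp10b, a lipid flippase, 44 and 21, and Tmem245, a membrane protein, 22 and 39. When only the highest such peak of each gene was compared, Trim2, Bptf, Chrnd and Ube2l6 of the 17 had the same position in both males. The last 3 were picked for that after their values were seen. Bptf, which reads histone marks for a nucleosome remodeller, had 55 tags in F of male 1 and 18 in F of male 2.

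Genes common to the fractions were also few. In male 1, 24 genes had an exon or UTR peak in F and D, 0.394% of those of F and 52.2% of those of D, and in male 2 there were 5 (9.62% of F and 1.77% of D). The highest exon or UTR peaks in F and D of male 1 overlapped for Lars2, Map7d2, Tsfm, Stox2 and Hspa5, and lower peaks of a gene were not compared. Counted over all peaks without rRNA, satellite, simple and low-complexity repeats, 11 exon or UTR peaks of D of male 1 overlapped an F peak. Map7d2, a microtubule-associated protein gene on the X chromosome, had 191 tags in F of male 1, 62 in F of male 2 and 40 in D of male 1. Tsfm, a mitochondrial translation elongation factor, had 24 in F and 42 in D of male 1. Hspa5, a chaperone of the endoplasmic reticulum that was named after its values were seen, had 318 and 16. Tags are not scaled, and those in peaks summed to 3030693 in F and 9916100 in D of male 1. The tags of a gene therefore do not give the direction between F and D. In D of both males, Cpne5, a copine, was the 1 gene besides Lars2, with 32 tags and 34, at different positions, and it had 41 in F of male 1.

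Counted with promoter-TSS, TTS and non-coding peaks, 3 of the 21052 named genes had a peak in all 4 libraries, namely Lars2, Rn45s and Mir466d. The peak at Mir466d, a microRNA gene, held 0.0786% and 0.429% of the summed score in F and 2.42% and 0.00486% in D. Its order of libraries is that of the LSU copies near Pex2, Gphn and Kpna1. On this wider count 12 of the 21052 genes had a peak in D of both males and F of neither. Among these 12, Mir6236 held 0.338% of the summed score in D of male 1 and 0.00120% in D of male 2. Cox17, a copper chaperone of the respiratory chain, held 0.000888% and 0.00138%. The D peaks at Mir6236 cover its mature sequence, which is shown with its seed, bases 2 to 8, in capitals and is credited to RefSeq on GRCm38.p6. Mir466d, Mir6236 and Cox17 were chosen after their values were seen. The peaks at both microRNA genes are classed as promoter-TSS. Whether their reads come from the microRNAs, from rRNA or from other RNA was not tested.
mmu-miR-6236, chr9:110281353-110281371, plus strand: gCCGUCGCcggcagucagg

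Lists of genes were counted with all peaks outside introns, against the shares of all named genes given above. Above that background in F of male 1 lay translation factors, 47 of 58, and nuclear genes of oxidative phosphorylation, 61 of 79, as well as cytosolic ribosomal proteins, 55 of 80. Eef1a1, the elongation factor that brings tRNA to the ribosome, scored 1942.0, Eef2 652.8 and Atp5a1, a subunit of the ATP synthase, 257.5. In F of male 2 these 3 lists had 0 genes with a peak, and in D of male 1 they had 0, 1 and 1, and in D of male 2 1, 1 and 0. The 1 ribosomal protein gene in D of male 1, Rps29 (0.000333% of the summed score, and 0.0752% in F of male 1), has its peak at Rn7s1, the RNA of the signal recognition particle.

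**Figure D5:**
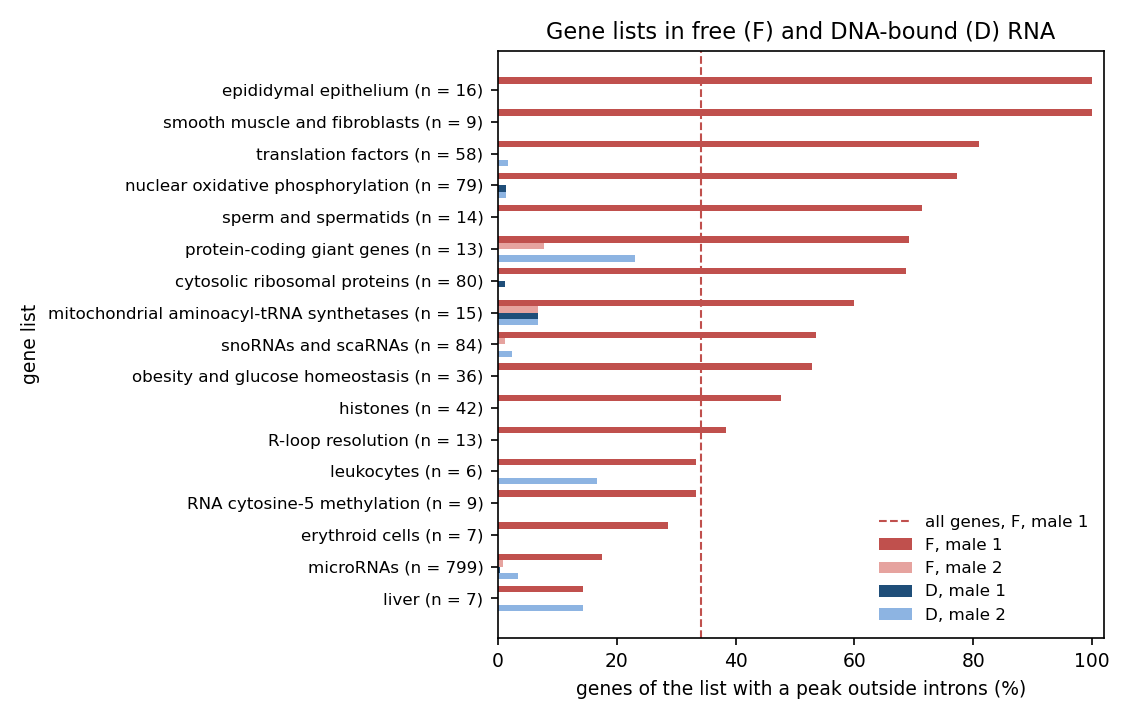
Share of the genes of each list (%) with a peak outside introns in F and D. Bars are single libraries, n is the number of list members named in any peak list, and the dashed line marks the 34.2% of all named genes in F of male 1.

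Of the cell type lists, the epididymal one held the largest share of the summed score in F of male 1. Within that library Gpx5, an epididymal glutathione peroxidase, scored 4950.0, Crisp1, a protein that coats sperm, 1846.1, Clu (clusterin) 1503.3, Lcn8, a lipocalin, 1356.5 and Rnase10 1218.8. Of the globins of red cells, Hba-a1 scored 1850.6 and Hbb-b1, which is not on the erythroid list and was chosen after its values were seen, 4658. Odf1, a protein of the sperm tail, scored 305.4, Prm2 301.0, Smcp, which sits in the mitochondrial sheath of sperm, 170.7 and Prm1 127.3. The epididymal list had 1.20% of the summed score of F of male 1, the smooth muscle and fibroblast list 0.0828%, the erythroid list 0.0817% and the sperm list 0.0434%, and the other libraries had 0 for each. The erythroid share leaves out Hbb-b1, whose peaks held 0.139% in F of male 1. The part of RNA from other cells in the exon peaks of F of male 1 was not tested.

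The genotype and the fraction point to 2 further lists, which lay close to the background. Of genes of RNA cytosine-5 methylation, 3 of 9 had a peak in F of male 1 (Ybx1 208.1, Alyref 50.9 and Nsun2 27.0) and 0 in each other library. Of genes that resolve R-loops, 5 of 13 did, with Top1, a topoisomerase, at 58.4 and Dhx9, a helicase, at 49.4, again with 0 elsewhere. Of genes of obesity and glucose homeostasis, a list that goes with the diet of the series, 19 of 36 did in F of male 1 and 0 elsewhere. Mitochondrial aminoacyl-tRNA synthetases had 9 of 15 in F of male 1 and 1 in each other library, which was Lars2 every time. In F of male 1 these 2 lists, at 52.8% and 60%, lay above the 34.2% of all named genes.

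Short structural RNAs were seen mainly in F of male 1. Of snoRNA and scaRNA genes, which guide modification of other RNAs, 45 of 84 had a peak in F of male 1, 1 in F of male 2, 0 in D of male 1 and 2 in D of male 2. These were 53.6% and 1.19% in F and 0% and 2.38% in D. Of all named genes the shares were 34.2% and 0.898% in F and 0.637% and 5.33% in D. Snord17 held 0.0814% of the summed score in F of male 1 and 0.00746% in F of male 2 and had no D peak. Further RNAs were chosen after their values were seen. Rn7sk, a regulator of transcription elongation, held 0.211% of the summed score in F of male 1 and 0.000263% in D of male 1. Rpph1, the RNA of ribonuclease P, held 0.126% and 0.000283%, and Malat1, a nuclear long non-coding RNA, 0.0468% and 0.000162%. Rmrp, the RNA of a related ribonuclease, held 0.156% in F of male 1 and had no peak elsewhere. F of male 2 and D of male 2 had none of these. Of 799 microRNA genes, 140 had a peak outside introns in F of male 1 (17.5%, below the 34.2% of all named genes), 7 in F of male 2, 3 in D of male 1 and 27 in D of male 2.

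Peaks in introns lay in genes that are longer than most. In F, 4785 and 2627 such peaks touched 2889 and 1900 genes, 13.7% and 9.03% of all named genes. In D, 1201 and 16448 touched 1027 and 6393 genes, 4.88% and 30.4%. Cntnap2, a neurexin-family adhesion protein, had most intron peaks in D of male 2, with 54. Macrod2, a macrodomain protein, and Ptprd, a receptor phosphatase, followed with 45 each. In F of male 2 these 3 had 12, 7 and 4, in D of male 1 3, 4 and 5, and in F of male 1 2 each. They span 2241, 1998 and 2271 kb in the RefSeq annotation. In F of male 1 the leaders were Frmpd4 with 41 peaks and Zbtb20, a transcription repressor, with 29, whereas D of male 2 had 3 and 15 there. These genes were chosen after their values were seen. The median span of genes with an intron peak was 58.6 and 106 kb in F and 127 and 62.2 kb in D, against 18.0 kb for all named genes.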

How the data were processed

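Free and DNA-bound RNA of 2 Dnmt2-/- males on ND were analysed as peak lists. Per the study's methods, the authors used FastQC for quality checks, cutadapt and Trimmomatic 0.36 for trimming, Hisat2 for alignment to GRCm38, and HOMER 4.9 for peaks per library, each filtered against its local region, and for annotation to mm10. Salmon, named there and in the submitters' processing notes, served transcript quantification, which is not used here. The deposited peak score was computed by the authors and its unit is not stated. It was read as tags scaled to a common total, because 100% of scores under 100 equalled a whole number of list-specific steps within 0.2 tags. Between libraries, scores were compared as shares of the summed score of a list. Raw scores are given within 1 library only, and tags show the depth behind a peak. All peaks carry the plus sign, so sense and antisense cannot be separated.

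Python 3.11.15, pandas 2.3.3, numpy 2.4.6, scipy 1.17.1 and matplotlib 3.10.9 were used, overlaps were checked against bedtools 2.31.1, sequences came from GENCODE M21 transcripts (blastn 2.17.0 for matches) and RefSeq, and the scripts were tested on simulated data (15 checks, 0 failed). Shares by position class use annotated peaks (39, 51, 11 and 110 peaks had no annotation in F of males 1 and 2 and D of males 1 and 2). Repeat classes come from the detailed annotation, and their shares and other score shares use all peaks. Intervals are Wilson intervals at 95%. The male number pairs the libraries, since the study prepared both fractions from each male. Each share was compared by a sign-flip permutation test, with Benjamini-Hochberg adjustment over 16 comparisons. Alternatives were a minimum of 20 tags, the 3000 highest peaks, weighting by score, an overlap of at least 50%, wider gene classes, an unpaired test, leaving out a male, and 2 kinds added after seeing the data (F of male 2 alone against D, and intron and intergenic peaks only). No column of values was left unused (0).

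Genes were named by a rule: genes the study names for this assay, genes closest to the 10 top peaks per library, up to 10 with a peak in F of both males, in D of both or in all 4, the 10 with most exon or UTR peaks per library, and up to 6 members of each gene list. A few genes that the rule picks, and 1 sequence, are not reported here. A gene counted in a list when it had a peak of any class but intron and intergenic. Members and lists were chosen with earlier results of these data known. Each male gave 1 library per fraction, so the spread between males includes technical spread.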

Additional observations from a re-analysis of the deposited data

Results flagged for a closer look

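Peaks on unplaced scaffolds of the assembly carry no position class and no gene, so they were outside the comparisons of position classes and genes. They do count in the numbers of peaks, the repeat shares, the summed score and the overlaps. F of male 1 had 35 of them, F of male 2 had 47, D of male 1 had 7 and D of male 2 had 106. They are listed because they hold signal in data that the class and gene comparisons do not use, and no untreated control library stands beside them. In number, F was higher than D in male 1 and lower in male 2, as it was for the total number of peaks. As a share of peaks the order was the reverse, with 0.138% and 0.616% in F and 0.204% and 0.212% in D.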

How the results depend on the processing

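Of 135 alternatives over 21 results, 98 kept the direction of a difference (whatever its size) or, for overlaps and gene counts, the size. Another 27 turned the direction and 10 moved an overlap or a count. Part of the 98 kept the direction by construction and says nothing of stability. The unpaired test uses the same mean difference, and both males cannot go against their own mean. Leaving out 1 male gave ranges of 0.0331 to 46.0 points for exons, 0.100 to 13.1 for 3′UTRs, -0.020 to 3.18 for 5′UTRs, 0.0769 to 2.32 for TTS, 0.0745 to 0.937 for the non-coding class, -0.066 to 2.99 for promoter-TSS, -16.3 to 1.62 for introns and -52.2 to -1.81 for intergenic positions. For repeats they were -14.8 to -2.35 (simple), -15.4 to -1.11 (LINE), -1.47 to 2.18 (SINE), -5.09 to -0.533 (LTR), -0.612 to 0.422 (satellite) and -1.84 to 0.433 points (rRNA), for the log2 number of peaks -2.71 to 2.89, and for the 10 highest peaks -5.44 to -0.826 points. F of male 2 alone turned exons to -0.15, 3′UTRs to -0.12, 5′UTRs to -0.011, introns to 0.55, intergenic positions to 0.061, non-coding to -0.021, promoter-TSS to -0.34, LTR to 0.28 and satellites to 0.56 points, and the log2 number of peaks to -0.78. Weighted by score, 3′UTRs turned to -4.49, introns to 35.7, promoter-TSS to -0.20 and rRNA repeats to 22.3. With intron and intergenic peaks only, LTR turned to 0.14 and satellites to 0.17. With at least 20 tags, the log2 number of peaks turned to -0.57, SINEs to -0.25 and satellites to 0.018, and with the 3000 highest peaks SINEs turned to -0.50. Overlap of D with F was 3.65% in male 1 when 50% of both peaks had to be shared. In male 2 that rule gave 0.022% by construction, since an F peak of 181 bases cannot cover 50% of a D peak of 400. With at least 20 tags it was 3.71% in male 1 and 1.42% in male 2. Of the 21052 named genes, those in F of both males and D of neither numbered 6 with at least 20 tags. They numbered 40 with promoter-TSS, TTS and non-coding peaks and 203 with introns. The same 2 wider classes gave 12 and 247 genes in D of both and F of neither, and 3 and 229 in all 4. The cause of the other changes was not tested, except that wider classes admit more peaks by construction.

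Without the replicate block every mean difference is the same by construction, so only p can change. In the unpaired exact permutation test p ranged from 0.333 (the smallest it allows) to 1. With 2 males no test here can pass 0.05. Peaks under the calling threshold are not seen, and depth and width differ between lists.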
